A study of Mus musculus with 6 samples.

Results

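Muscle fibers hold a small store of ATP and refill it from phosphocreatine and from ADP. To describe how the genes of this energy buffer responded to the loss of the nerve, 10 genes were examined in mouse gastrocnemius (GA) muscle: the creatine kinases Ckm, Ckmt2 and Ckb, the creatine synthesis enzymes Gatm and Gamt, the creatine transporter Slc6a8, the adenylate kinase Ak1, the AMP deaminases Ampd1 and Ampd3, and the adenylosuccinate synthase Adssl1. Every probe annotated with one of these symbols was taken, which gave 14 of the 25697 probes of the array for 10 of its 16593 named genes. The 3 denervated samples came from the left leg of adult male mice 14 days after a piece of the sciatic nerve had been removed. The 3 control samples came from the right leg of the operated mice, which kept its nerve. Which left and right samples came from the same mouse was not given. The mice carried no stated genetic change, and their strain and number were not given in the sources used here, so the p-values cover only the variation among these 3 samples a group, which may be technical. The control leg belonged to an operated animal, and whole muscle was used, so that fewer cells of a type and less RNA per cell could not be told apart.

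Creatine kinases pass a phosphate between ATP and creatine. The cytosolic form Ckm is bound in part to the sarcomere, Ckmt2 sits in the mitochondria of striated muscle, and Ckb is the cytosolic form known from brain and smooth muscle. Creatine is made from arginine and glycine by Gatm and then Gamt, mostly outside muscle, and enters the fiber through Slc6a8. When ADP builds up, adenylate kinase turns it into ATP and AMP, and AMP deaminase removes the AMP as IMP. Adenylosuccinate synthase and adenylosuccinate lyase (Adsl) return IMP to AMP, which closes the purine nucleotide cycle.

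Each of the 6 samples was hybridized to 1 bead array, and all arrays lay on 1 chip control samples first and denervated samples after them, so that the place on the chip cannot be told apart from denervation. An array had 11551 to 12785 probes above background, and across the kept probes 2 arrays of the same group had a correlation of 0.9878 to 0.9939. The denervated arrays were brighter before normalization, with a 95th percentile of the signal of 4000 to 4048 against 2896 to 3022 on the control arrays. Of the 9 skeletal muscle marker genes found on the array, all were above background, 6 of them so bright that no change could be read, and 0 of the other 3 were called. All 8 macrophage markers that passed the filter were higher in denervated muscle, and their summed level on the normalized linear scale was 6993 to 8664 in the denervated samples and 2823 to 2994 in the controls. The ninth, Fcer1g, did not pass the filter. Of the kept markers of other cell types, 4 of 5 endothelial, 3 of 4 smooth muscle, 2 of 3 Schwann cell, 1 of 3 erythrocyte and 1 of 2 adipocyte genes were lower, and 1 Schwann cell gene, Ngfr, was higher. These counts take the brightest kept probe of each gene, and some genes had other probes with another call. Mbp, counted as lower, had a probe that was higher (0.66, adjusted p = 0.0089, limma). Acta2, counted as not called, had other probes that were lower, and Egfl7, counted as lower, had others that were not called. The part of all these markers in the results below was not tested.

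Most of the measured genes of the buffer were lower in denervated muscle, and none was called higher. Of the 14 probes, 12 passed the filter on dim probes, and those of Ampd3 and Gatm did not. The probe of Ckm lay near the ceiling of the scanner and was given no fold. Of the remaining 11 probes, 9 were lower at an adjusted p under 0.05 (limma), 0 were higher and 2 were not called, with a median log2 fold change of -0.84. Among all 12546 kept probes 42.9% were called, 21.0% lower and 21.9% higher, and the median was 0.00. Counted by gene, with the brightest kept probe for each, 5 of 8 genes were lower (Ckmt2, Ak1, Ampd1, Adssl1 and Gamt), 2 were not called (Ckb and Slc6a8) and 1, Ckm, had no fold. By this count 43.8% of all 8740 genes were called, 21.6% lower and 22.2% higher.

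**Figure D1:**
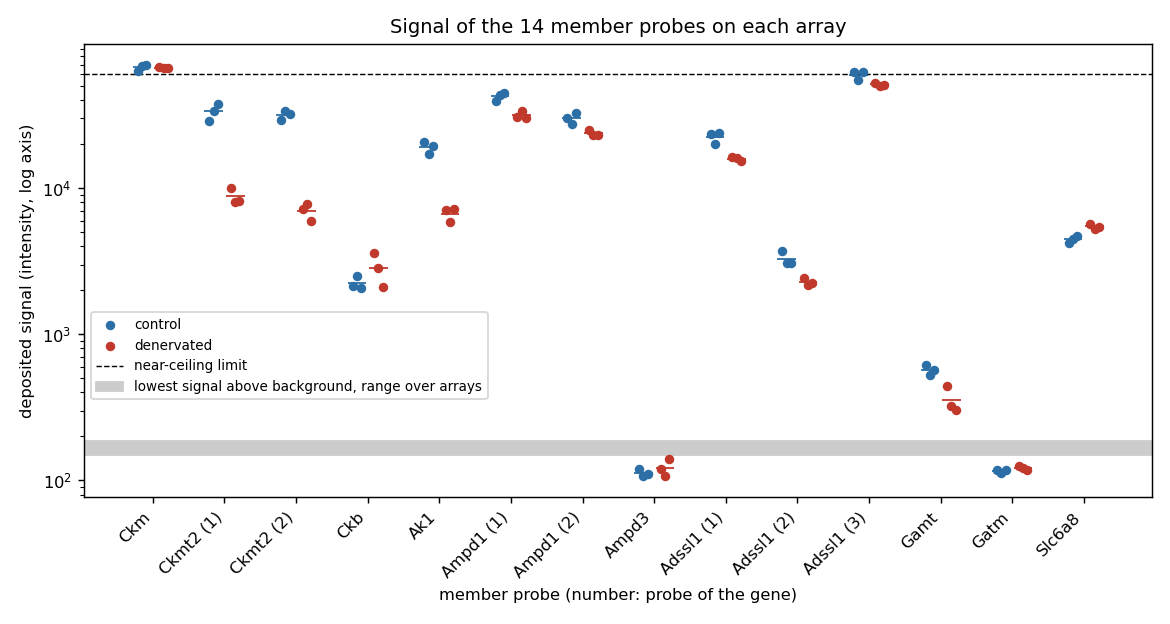
Deposited signal (intensity, log axis) of the 14 probes on the 3 control (blue) and 3 denervated (red) arrays, with group means as short lines. Ckm lies above the dashed near-ceiling limit of 60000 in both groups, Ampd3 and Gatm lie below the grey band of the lowest signals counted as above background (148.5 to 186.0 over the arrays), and Ckmt2 and Ak1 show the widest gaps between groups.

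The 3 creatine kinases gave 3 different readings. Ckmt2 fell further than any other member, Ckb was not called, and Ckm could not be read. The first Ckmt2 probe, ILMN_2698052, had a signal of 10038, 8073 and 8193 in the denervated samples, against 28901, 33448 and 37889 in the controls. The other, ILMN_2817864, had 7248, 7727 and 5993 in denervated and 28993, 33561 and 32028 in control muscle. Both probes put every denervated value well below every control value. After normalization the change was -2.25 ± 0.14 on the log2 scale (here and below with the SE of the model, 3 samples a group; 4.76-fold lower; adjusted p = 5.29e-06, limma) by the first and -2.52 ± 0.14 (5.73-fold lower; adjusted p = 3.11e-06) by the other. Only 0.77% and 0.56% of all kept probes fell more.

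Ckb, with 1 probe, did not show such a fall. Its signal was 3595, 2849 and 2119 in denervated muscle, against 2155, 2499 and 2061 in control muscle. The groups overlapped, and denervated replicate 1 was the highest of the 6. The log2 fold change was -0.13 ± 0.20 (adjusted p = 0.64), with a 95% interval of -0.58 to 0.33 that holds moderate changes in both directions. Its sign depended on the scaling and on 1 array: it was 0.08 without denervated replicate 3, and 0.09 when the arrays were shifted to 1 median, where the median of all probes was 0.20. Smooth muscle, a known site of Ckb, had 4 kept markers, of which 3 were lower and 0 higher, with a summed level of 6374 to 9483 in denervated and 10306 to 14909 in control samples. The fifth, Cnn1, did not pass the filter. The sums are of normalized values. As deposited, the signals of Acta2 (brightest probe), Tagln and Rgs5 overlapped between the groups, while those of Myh11 were lower on every denervated array. The part of these markers in the Ckb values was not tested.

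The signal of Ckm was 67657, 66089 and 66147 in denervated and 63430, 68336 and 69959 in control muscle. All 6 values were above 60000, where the highest signal of any probe on an array was 69263 to 71358. Only 11 probes of the whole array lay above 60000 on every array. A fall or a rise of Ckm mRNA could therefore not be read from this probe, and no fold is given.

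The difference between the changes of Ckb and Ckmt2 was taken within each array, from the brightest probe of each gene. It was 2.12 on the log2 scale, with an SD of 0.28 over the denervated and 0.22 over the control arrays. The exact two-sided permutation test over the arrays gave p = 0.10 (adjusted p = 0.20 over 2 pairs), the smallest p that 3 against 3 arrays allow. A planned comparison of Ampd3 with Ampd1 could not be made because Ampd3 was not above background.

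Of the genes of creatine supply, Gamt, the enzyme that methylates guanidinoacetate to creatine, was lower. Its signal was 444.3, 323.6 and 302.5 in denervated and 618.7, 526.4 and 566.5 in control muscle. The groups did not overlap, and the denervated values lay closest to background of all members that passed the filter. The fall was -1.50 ± 0.21 (2.83-fold; adjusted p = 0.00058), while the ratio of the mean deposited signals was 1.60. Without background correction it was -1.06, also called (adjusted p = 2.51e-05). Gatm, which makes the precursor guanidinoacetate, was measured by 1 probe that was above background on 0 of 6 arrays, with a signal of 112.1 to 124.9. Its level could not be read in either group.

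The creatine transporter Slc6a8 was not called. Its signal as deposited was 5720, 5287 and 5432 in denervated muscle, against 4191, 4508 and 4677 in control muscle, and thus higher on every denervated array. After quantile normalization, which set the brighter denervated arrays level with the controls, the values were 12.24, 12.13 and 12.17 against 12.25, 12.37 and 12.37 on the log2 scale, now lower on every denervated array. The log2 fold change was -0.15 ± 0.11 (adjusted p = 0.30; 95% interval -0.40 to 0.10), and it was 0.06, still below the median of all probes, when the arrays were shifted to 1 median. The sign of the Slc6a8 value thus depended on the scaling.

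Ak1, the cytosolic adenylate kinase of muscle, showed the largest fall of the members outside the creatine kinases. Its signal was 7037, 5840 and 7200 in denervated and 20727, 17121 and 19251 in control muscle, with no overlap. The change was -1.92 ± 0.13 (3.79-fold lower; adjusted p = 8.56e-06), and 1.26% of all kept probes fell more. With any single array left out, it lay between -1.99 and -1.84.

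**Figure D2:**
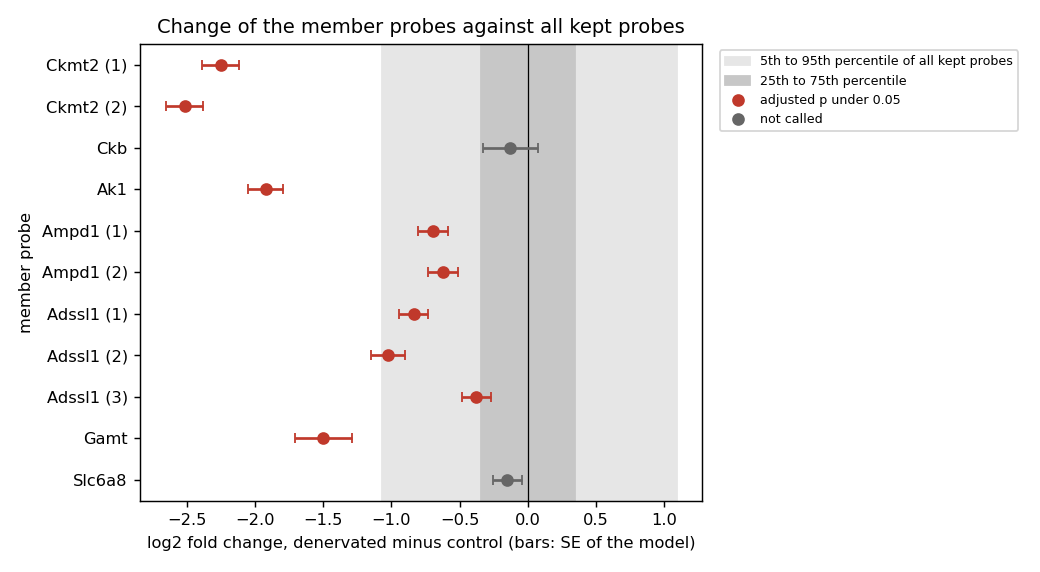
Log2 fold change (denervated minus control, n = 3 per group) of the 11 probes that were tested and given a fold, with the SE of the model. The light band spans the 5th to 95th percentile of all kept probes (-1.07 to 1.09) and the dark band the 25th to 75th (-0.34 to 0.35). Both Ckmt2 probes, Ak1 and Gamt lie left of the light band, Ckb and Slc6a8 within the dark one.

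The muscle AMP deaminase Ampd1 fell less. ILMN_1237871 had a signal of 30654, 33550 and 30265 in denervated and 39497, 43641 and 44702 in control muscle. ILMN_2971142 had 25016, 23054 and 22977 against 30156, 27235 and 32560. The groups were apart by both probes, with changes of -0.70 ± 0.11 (1.62-fold lower; adjusted p = 0.0012) and -0.62 ± 0.11 (1.54-fold lower; adjusted p = 0.0022). The 2 probes thus differed by less than their errors. Ampd3, the form known from erythrocytes and other tissues, had 1 probe, whose signal of 106.8 to 140.5 was above background on 0 of 6 arrays. Whether Ampd3 changed could not be read from it.

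Adssl1, the muscle form of adenylosuccinate synthase, was lower by all 3 of its probes, but by different amounts. The dimmest, ILMN_2711688, had a signal of 2409, 2162 and 2237 in denervated and 3728, 3050 and 3088 in control muscle and gave -1.02 ± 0.13 (2.03-fold; adjusted p = 0.000285). ILMN_1245079 had 16362, 16137 and 15242 against 23568, 19994 and 23641 and gave -0.84 ± 0.11 (1.79-fold; adjusted p = 0.000389). The brightest, ILMN_2958099, had 52494, 50255 and 50660 against 62054, 55010 and 62163 and gave -0.38 ± 0.11 (1.30-fold; adjusted p = 0.0205). All 3 probes kept the groups apart, and the brighter the probe, the smaller was the fall. On the brightest probe 2 of 3 control arrays were above 60000. Its call was lost without denervated replicate 2 (adjusted p = 0.0657) or control replicate 1 (0.0664), and its change was -0.74 when the arrays were shifted to 1 median over the probes above background on all of them.

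After normalization the denervated and control values did not overlap in 10 of the 11 probes, with the denervated values lower in each, and this was so for 26.0% of all kept probes. The exception was Ckb. The 10 include Slc6a8, whose deposited signals ran the other way. The call of each of the other 8 lower probes, those of Ckmt2, Ak1, Ampd1 and Gamt and the 2 dimmer ones of Adssl1, held in all 17 alternative settings.

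**Figure D3:**
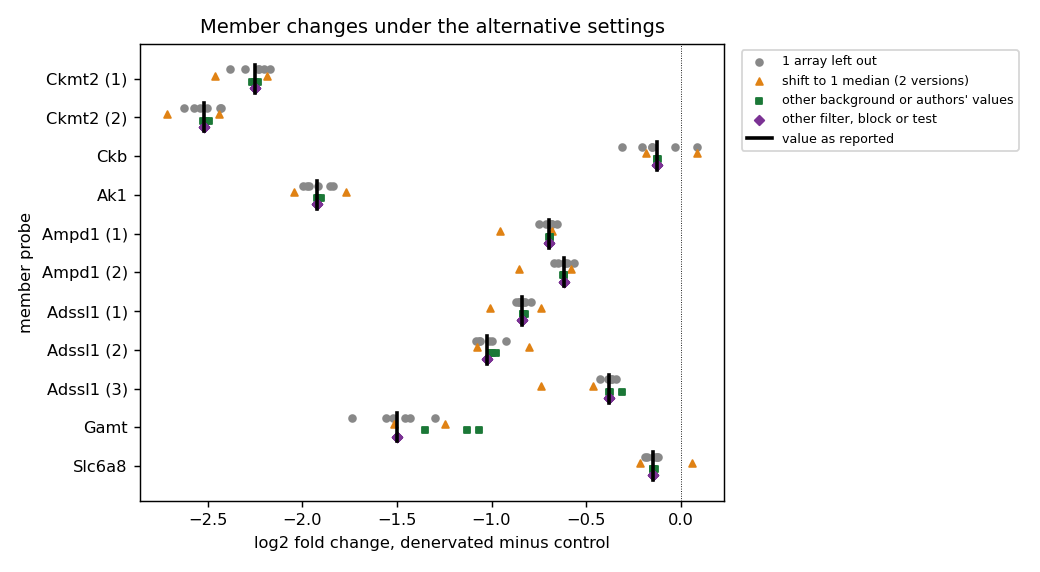
Log2 fold change of the same 11 probes under the 17 alternative settings, by kind of setting, with the reported value as a vertical bar. The points of Ckmt2, Ak1, Ampd1, Adssl1 and Gamt stay left of 0, while those of Ckb (-0.31 to 0.09) and Slc6a8 (-0.21 to 0.06) lie on both sides of it.

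To show what stands at the start of these genes, the 250 bases before the annotated start are given for the 4 genes that had a fold and a single start in the RefSeq promoter table, which held 8 of the 10 genes: Ckmt2, Adssl1 and Gamt, which fell, and Ckb, which was not called. Capitals mark the E-box CANNTG, the core sequence bound by myogenic bHLH factors, which reads the same on both strands. The sequences are from RefSeq on build GRCm38.p6, 5′ to 3′ on the strand of the gene.
Ckmt2, chr13:91876886-91877135, minus strand: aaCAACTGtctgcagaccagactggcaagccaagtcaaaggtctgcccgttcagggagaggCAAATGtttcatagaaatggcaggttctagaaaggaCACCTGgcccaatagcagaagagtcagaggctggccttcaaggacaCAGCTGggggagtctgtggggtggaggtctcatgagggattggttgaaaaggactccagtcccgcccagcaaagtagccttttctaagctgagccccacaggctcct
Adssl1, chr12:112619797-112620046, plus strand: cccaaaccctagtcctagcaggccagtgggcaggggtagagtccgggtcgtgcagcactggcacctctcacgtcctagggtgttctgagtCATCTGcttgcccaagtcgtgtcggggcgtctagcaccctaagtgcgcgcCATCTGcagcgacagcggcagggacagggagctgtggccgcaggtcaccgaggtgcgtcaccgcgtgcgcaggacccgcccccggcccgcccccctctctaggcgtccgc
Gamt, chr10:80261013-80261262, minus strand: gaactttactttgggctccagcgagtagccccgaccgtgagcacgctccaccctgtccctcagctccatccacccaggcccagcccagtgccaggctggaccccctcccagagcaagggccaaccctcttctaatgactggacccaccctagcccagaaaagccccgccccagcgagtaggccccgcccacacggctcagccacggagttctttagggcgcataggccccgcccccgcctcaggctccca
Ckb, chr12:111672339-111672588, minus strand: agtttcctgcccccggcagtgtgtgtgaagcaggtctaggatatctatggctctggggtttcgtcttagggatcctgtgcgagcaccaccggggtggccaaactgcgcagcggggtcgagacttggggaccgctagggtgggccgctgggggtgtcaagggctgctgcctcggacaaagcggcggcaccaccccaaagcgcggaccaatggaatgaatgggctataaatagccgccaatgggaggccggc

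The window of Ckmt2 held 4 E-boxes and that of Adssl1 held 2, whereas those of Gamt and Ckb held 0. An E-box was found in 66.2% of all 32851 windows of this length. Searched on both strands, the GC box GGGCGG occurred 3 times before Gamt, 2 times before Adssl1 and 1 time before Ckmt2 (32.7% of all windows). The Ckb window had 1 TATA box, TATAAA (12.4% of all windows), which overlapped a match to a loose form of the MEF2 site, CTA and TAG around any 4 bases (3.2%). Adssl1 had 1 match to that form as well. AAGGTCA, the core of the site of estrogen-related receptors, was found in none of the 4 windows and in 4.1% of all. A match describes these letters only.

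Next, other genes of adenine nucleotide metabolism, of mitochondrial exchange and of the AMP-activated kinase were examined as lists. Of 29 genes that passed the filter, 11 were lower, 2 were higher and 16 were not called, with a median log2 fold change of -0.25. The share called was 44.8% (37.9% lower and 6.90% higher), close to the 43.8% of all genes (21.6% lower and 22.2% higher). The counts of the small lists below stand beside the same shares of all genes. The lower calls were uneven over the lists. They made up 4 of 5 genes of ATP, ADP and phosphate exchange and 3 of 4 kinase subunits. In purine salvage and breakdown they were 2 of 9, and in purine synthesis 0 of 7. The other adenylate kinases and the purine nucleotide cycle had 1 of 2 each. In the purine nucleotide cycle, Adsl, the lyase that follows Adssl1, fell by 0.76 ± 0.15 (adjusted p = 0.0035). Its deposited signals overlapped between the groups, while its call held in all 17 alternatives. Adss, the form of the synthase found in most tissues, stood at -0.41 ± 0.18 (adjusted p = 0.092). Its signal was near background and overlapped, at 287.4, 233.8 and 273.8 in denervated and 235.9, 227.3 and 290.8 in control muscle. Without background correction the change was -0.22 (adjusted p = 0.1037). With the arrays shifted to 1 median it was -0.19 (adjusted p = 0.4421). The difference between the changes of Adss and Adssl1 depended on the Adssl1 probe. It was -0.04 with the brightest, ILMN_2958099 (exact two-sided permutation test, p = 0.90, adjusted p = 0.90 over 2 pairs; SD 0.14 over denervated and 0.29 over control arrays), which lay above 60000 on 2 of 3 control arrays. With ILMN_1245079 it was 0.42 (SD 0.22 and 0.32) and with ILMN_2711688 it was 0.61 (SD 0.15 and 0.43), each at p = 0.20 by the same exact test, in a comparison added after the data had been seen. Whether the genes changed alike could not be read from these values. Ampd2, the remaining deaminase, was not kept.

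Of the other adenylate kinases, the mitochondrial Ak3 fell by 0.51 ± 0.12 (adjusted p = 0.0093), but by 0.29 with the arrays shifted to 1 median (adjusted p = 0.0939). The deposited signals of this probe overlapped, at 2409.2, 1968.2 and 2405.7 in denervated and 2240.1, 2331.4 and 2343.6 in control muscle. The other kept probe of Ak3 gave -0.78 ± 0.12 (adjusted p = 0.000821). Its deposited signals were lower on every denervated array. Ak4, also mitochondrial, stood at -0.46 ± 0.19 (adjusted p = 0.0858). Its signal was near background, at 183.1, 186.7 and 183.4 in denervated and 168.4, 182.2 and 190.8 in control muscle. Without background correction the change was -0.18 (adjusted p = 0.152). It was called lower without control replicate 1 (-0.69, adjusted p = 0.0096). This was also so with the arrays shifted to 1 median over the probes above background on all of them (-0.61, adjusted p = 0.0174). Ak5, Ak6 and Ak8 were not kept, and neither was Ckmt1, the creatine kinase of mitochondria outside striated muscle. In the list of ATP, ADP and phosphate exchange between mitochondria and cytosol, 4 of 5 genes were lower and 0 higher. The channels of the outer membrane Vdac3 (-1.01 ± 0.13), Vdac2 (-0.93 ± 0.13) and Vdac1 (-0.85 ± 0.12) and the phosphate carrier Slc25a3 (-0.75 ± 0.13) fell, at an adjusted p of 0.0016 or less. Slc25a5, an ADP/ATP carrier, stood at 0.00 ± 0.11 (adjusted p = 0.98). As deposited, its signal was higher on every denervated array, at 6603.6, 6013.3 and 6800.3 against 4813, 4706.5 and 4591.5 in control muscle. With the arrays shifted to 1 median its change was 0.22 (adjusted p = 0.1514). Of 4 kept subunits of the AMP-activated kinase, which senses AMP, Prkaa2, the catalytic subunit of muscle (-1.29 ± 0.24, adjusted p = 0.0026), Prkag1 (-0.74 ± 0.13, adjusted p = 0.0023) and Prkab2 (-0.39 ± 0.13, adjusted p = 0.0352) were lower. As deposited, the signals of each of these overlapped between the groups. Those of Prkab2 were 1615.5, 1628.4 and 1927.1 in denervated and 1640.8, 1473.6 and 1696 in control muscle. The calls of Prkaa2 and Prkag1 held in all 17 alternatives. Prkab1 stood at 0.17 ± 0.11 (adjusted p = 0.23), or 0.45 with the arrays shifted to 1 median (adjusted p = 0.0151). The call of Prkab2 was lost in 6 of 17 alternatives, among them those without denervated replicate 1 (adjusted p = 0.114) or 2 (0.108) or control replicate 1 (0.0869) or 3 (0.0876), and with the arrays shifted to 1 median its change was -0.14 (adjusted p = 0.392).

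Of 9 kept genes of purine salvage and breakdown, 2 were lower, 1 was higher and 6 were not called. Xdh, the oxidase that makes uric acid, fell by 1.44 ± 0.13 (adjusted p = 5.1e-05). Endothelial cells are known to express Xdh. Their markers had a summed normalized level of 6138 to 6455 in denervated and 7800 to 10281 in control samples. As deposited, the signals of each kept endothelial marker, by its brightest probe, overlapped between the groups. The fifth kept marker, Tek, was not called, while Kdr did not pass the filter. Further, Adk, the kinase that turns adenosine into AMP, fell by 1.06 ± 0.11 (adjusted p = 0.000116). Hprt, which salvages hypoxanthine to IMP, rose by 1.14 ± 0.12 (adjusted p = 0.00012), and its other 2 probes rose as well (1.14 and 1.42). Among the 6 not called by their brightest probe was the nucleotidase Nt5c2. That probe gave -0.03 ± 0.19 (adjusted p = 0.92), while another rose by 1.0 ± 0.15 (adjusted p = 0.000782). The remaining kept probe, at 0.21 ± 0.13, was not called (adjusted p = 0.2285). The probe that rose had a signal of 247.7, 264.9 and 296.4 in denervated and 170.7, 153.7 and 169.2 in control muscle, near background in the latter. Of 7 kept genes of purine synthesis, 6 were not called. The exception was Impdh1, which leads IMP towards guanine nucleotides and rose by 1.73 ± 0.18 (adjusted p = 0.000105). Its signal was 425.5, 409.9 and 523.6 in denervated and 173.3, 181.2 and 192.5 in control muscle, near background in the latter, and the rise was 0.94 without background correction and 1.01 by the authors' normalized values. The 2 other probes of Impdh1 did not pass the filter.

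**Figure D4:**
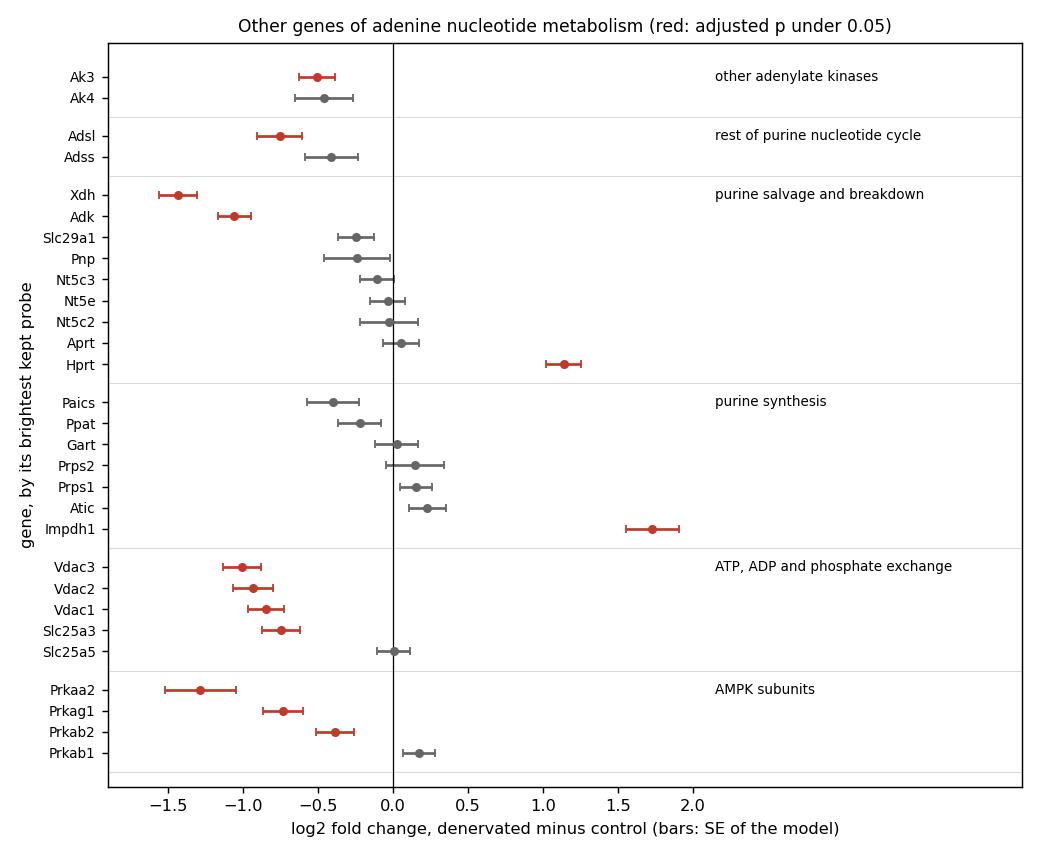
Log2 fold change (denervated minus control, n = 3 per group) with the SE of the model for 29 other genes. They belong to adenine nucleotide metabolism, mitochondrial exchange and the AMP-activated kinase, and each is shown by its brightest kept probe, grouped by list. Genes at an adjusted p under 0.05 are red: 11 lie left of 0, led by Xdh (-1.44) and Prkaa2 (-1.29), and Hprt (1.14) and Impdh1 (1.73) lie to the right.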

How the data were processed

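Per the methods of the study, total RNA was depleted of ribosomal RNA, amplified to biotinylated cRNA and hybridized to Illumina MouseRef-8 bead arrays, and GenomeStudio was used for the arrays. Each probe and array had, per the file headers, a linear signal intensity with its standard error over beads, a bead number and a detection p-value in the deposited table. These deposited intensity values were neither background-subtracted nor normalized. Another table, with intensity values that the authors had quantile-normalized, served as an alternative.

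Background was removed with a normal-exponential model fitted through the detection p-values. An offset of 16 was added, and quantile normalization and log2 followed, as in neqc (limma 3.58.1, R 4.3.3). The offset makes fold changes understate the change of dim probes. Probes with a detection p-value under 0.05 on at least 3 of 6 arrays were kept (12546). Symbols came from the platform annotation (1 gene for 23978 probes, none for 1719, several for 0). By Entrez number 23962 probes matched the RefSeq table of GRCm38.p6, which changed 0 symbols. The groups were compared with lmFit and eBayes, and p-values of all kept probes were adjusted together (Benjamini-Hochberg, threshold 0.05). The code was tested on simulated data. A signal above 60000 on all arrays was treated as near the ceiling. Fold intervals are at the 95% level.

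The members and lists were chosen with earlier results of these data known. Every member probe is named, and from each list up to 4 genes past the threshold with the largest change. Genes that are named though not called were chosen after their values were seen. Replicate numbers of the 2 groups were not taken as pairs.

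The alternatives changed the background correction, the offset, the normalization, the filter, the moderation or the test, used the replicate number as a block, or left out each array in turn. The number of arrays limits the precision.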

Additional observations from a re-analysis of the deposited data

How the results depend on the processing

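The count of 9 called member probes ran from 8 to 9 with 1 array left out, was 9 in each of the 11 other settings of the fit, and was 8 with 50000 as the near-ceiling signal, where the brightest Adssl1 probe was given no fold. The median of all probes moved to 0.20 when the arrays were shifted to 1 median, and 73.3% of the 5906 called probes were then higher, against 51.1% of 5377. The second form of that shift, which used only probes above background on all 6 arrays and was added after the data had been seen, gave -0.07 and 43.9% of 5590. In the first, Ckb (0.0869) and Slc6a8 (0.0592) turned sign but lay below the median of all probes. Leaving out 1 array gave 4225 to 4845 called probes.

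Among the 29 probes run under the alternatives, the signs that turned were those of probes not called. The other list genes that were not called were not run. Besides Slc6a8 and Ckb (-0.3126 to 0.0831 with 1 array left out), these were Slc25a5, at -0.0332 to 0.0515 with 1 array left out and -0.0500 with the second shift, and Nt5c2, at 0.1884 with the first shift and -0.2127 to 0.1096 with 1 array left out. The difference between Adss and Adssl1 was 0.1546 without background correction, 0.0408 with an offset of 50, 0.2736 with the first shift, 0.0704 by the authors' values, -0.1591 to 0.1311 with 1 array left out, and 0.4242 and 0.6101 with the dimmer Adssl1 probes, added after the data had been seen. The cause was not tested. That between Ckb and Ckmt2 stayed at 1.97 to 2.31, and was 2.3904 with the other Ckmt2 probe.

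The replicate numbers shared by the groups were not shown to mark a mouse. Same-numbered arrays deviated from their group means with correlations of -0.02, 0.16 and 0.16. Denervated replicates 2 and 3 correlated best with their own number, while denervated replicate 1 correlated better with another number (0.13). With the replicate number as a block, 5357 probes were called and 9 member probes, and no member call changed. Signals near background (Gamt, Impdh1, Ak4, Adss, Nt5c2) and near the ceiling (Ckm, Adssl1) limit what the arrays show.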

Other observations

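The spread between replicates was not even over the genes of the buffer. On the normalized log2 scale, the SD over the 3 denervated arrays was 0.44 for Gamt and 0.40 for Ckb, against 0.13 and 0.18 over the controls, and between 0.05 and 0.20 for the other 9 tested probes in denervated muscle. In both genes denervated replicate 1 was the highest of its group and replicate 3 the lowest. The standard error over beads, averaged over the arrays, was 0.09 for Gamt and 0.10 for Ckb on the log2 scale, taken before background correction.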
